A study of Mus musculus with 6 samples.

Results

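F-box genes were taken as every non-control probe whose gene symbol on the array begins with Fbxo, Fbxl or Fbxw followed by a number. The search found 106 of the 55681 probes, which name 77 of the 24105 gene symbols on the array. Fbxo symbols account for 49 probes and 37 genes, Fbxl symbols for 28 probes and 18 genes and Fbxw symbols for 29 probes and 22 genes. The probes were measured in 1676 cells, a mouse pre-B cell line of the genotype SLP-65-/- LAT-/-, on 6 single-colour arrays. All cells were kept in IL-7 and selected with puromycin after retroviral transduction. There were 2 arrays each of cells with the empty control vector, with hsa-miR-26a-2 (miR-26a cells) and with a sponge that sequesters miR-26 family members (sponge cells). The control for the sponge arrays was therefore the empty vector and not a scrambled sponge. The submitters describe 2 independent experiments with independently generated clones, and the replicate number of an array was taken as its experiment.

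An F-box protein is the part of an SCF ubiquitin ligase that binds the substrate, while Skp1, Cul1 and Rbx1 form the core to which it docks. The letter in the symbol names the domain that does the binding: WD40 repeats in Fbxw proteins, leucine-rich repeats in Fbxl proteins and other domains in Fbxo proteins. Through their substrates, which include cyclins, transcription factors and clock proteins, F-box proteins act on the cell cycle and on signalling.

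The sequences of the expressed and the sequestered miRNA are shown because all comparisons rest on them. The capitals mark the seed, bases 2 to 8, which both family members share (mouse sequences of RefSeq, GRCm38.p6).
mmu-miR-26a-5p: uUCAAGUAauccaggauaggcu
mmu-miR-26b-5p: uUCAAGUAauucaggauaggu
The miR-26a sequence lies on the plus strand of chr9:119031811-119031832 and of chr10:126995543-126995564, and miR-26b on chr1:74394324-74394344. In a transcript the matching words are TACTTGA for bases 2 to 8, ACTTGAA for bases 2 to 7 followed by A, and ACTTGA for bases 2 to 7. They were sought on the given strand of the 60-base probes, where each longer word that was found also counts for the shorter. TACTTGA occurred in 0 of the 106 F-box probes and in 0.431% of all probes of the array. ACTTGAA occurred in 1 F-box probe, and ACTTGA in 4, or 3.77%, against 1.96% of all probes. The 30-base windows that hold the 4 words are shown with the word in capitals, since these are the only miR-26 words in the sequences measured.
Fbxl19: gctccacccttcACTTGAgttggggtgggg
Fbxo36: attccagcatcACTTGAAaaccagattttg
Fbxl20: ctgaagtgtggtgttgacaggaccACTTGA
Fbxw22: ctgatggggaaacgcctacatgACTTGAta
The Fbxl19 window belongs to the dimmer of that gene's 2 probes and the Fbxl20 window to a probe that was too dim to test, as was Fbxw22. A probe covers only a short stretch of a transcript, so these counts say nothing of sites elsewhere.

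The signal of a probe is given as log2 of its background-subtracted intensity after quantile normalization. Levels are compared only between arrays. Brighter and dimmer tell the probes of a gene apart by their mean signal and say nothing of transcript amounts. A probe was tested where its signal exceeded 50 on at least 4 of the 6 arrays and the scanner marked it as well above background on 1 or more. By this filter 60 F-box probes of 47 genes were tested, which is 56.6% of the F-box probes beside 36.2% of all probes. The numbers were 32 Fbxo probes of 27 genes, 16 Fbxl probes of 12 genes and 12 Fbxw probes of 8 genes. The mean log2 signals of the tested F-box probes ran from 5.90 to 14.30.

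Of the other 46 probes, 27 were not well above background on any array, 9 were so on some arrays and 10 on all 6. The 10 had mean log2 signals between 4.17 and 5.81 and belong to Fbxl5, Fbxl22, Fbxo16, Fbxo32, Fbxo34, Fbxo39, Fbxo48, Fbxw13 and Fbxw21. In all, 30 genes had no tested probe: 14 Fbxw, 10 Fbxo and 6 Fbxl genes. The untested Fbxo genes were Fbxo15, Fbxo16, Fbxo24, Fbxo27, Fbxo32, Fbxo40, Fbxo41, Fbxo43, Fbxo47 and Fbxo48. Fbxo32 encodes atrogin-1, a ligase known from muscle. The untested Fbxl genes were Fbxl2, Fbxl7, Fbxl13, Fbxl16, Fbxl21 and Fbxl22. Of the Fbxw genes without a tested probe, Fbxw10 stands alone, and the other 13 have their probes in 1 stretch of chromosome 9, between positions 109042040 and 109672648 (mm9). This cluster, from Fbxw13 to Fbxw27, is covered by 16 probes, of which 4 were well above background on any array and none was tested. Its genes are close copies of one another, so a probe of the cluster may read more than 1 of them.

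**Figure D1:**
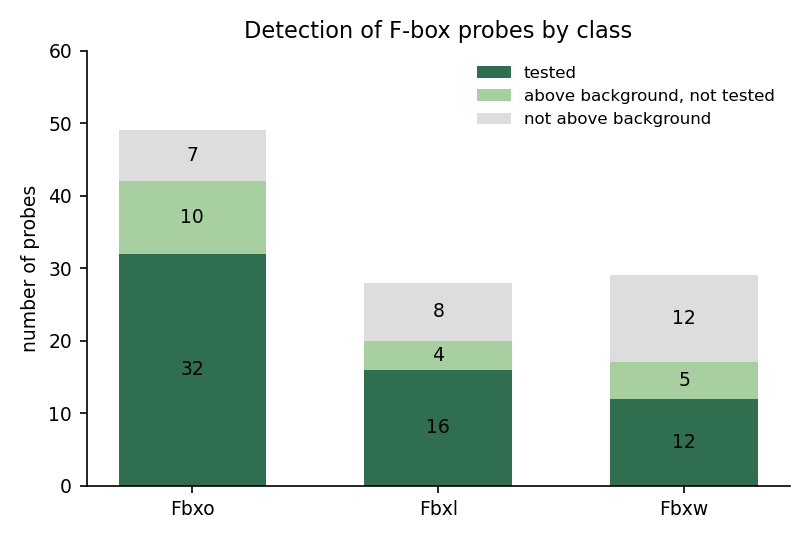
Number of F-box probes in each class (bars, in probes) that were tested, that passed the background on 1 or more arrays but were not tested, and that were not above background on any array. The share tested is highest for Fbxo, with 32 of 49, and lowest for Fbxw, with 12 of 29.

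All 6 arrays were of 1 slide and 1 scan, with 28823 to 29800 of 59305 spots well above background and 0 spots saturated. Replicates correlated at 0.996 to 0.997 across the 20168 probes tested. The median difference between 2 replicates of a group lay between 0.10 and 0.15 on the log2 scale over all probes, and between 0.08 and 0.10 over the F-box probes. The pre-B markers Cd79a, Cd79b, Pax5, Ebf1, Vpreb1, Igll1, Il7r, Rag1 and Rag2 were well above background on every array. The recombinase genes Rag1 and Rag2 were the 2 of these that passed an adjusted p of 0.05 between miR-26a and control cells, with log2 changes of -2.47 and -3.36. The summed linear signal of the 7 myeloid markers was 3555 to 4610 in control, 3821 to 4554 in miR-26a and 2956 to 4413 in sponge cells. Of these, Itgam, Csf1r and Elane were above background on all arrays, and Lyz2, Cd14, Emr1 and Mpo were too dim to test. Of the 5 T cell markers, Cd3e and Cd4 were above background on all arrays, with summed signals of 1068 to 1202 in sponge cells and 1297 to 1417 in the other cells. The 3 erythroid and 4 fibroblast markers summed to at most 35.7 on any array. The part of other cells in the F-box values was not tested.

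The first comparison asks how F-box transcripts differ when miR-26a is overexpressed. Fbxl19 was lower in miR-26a cells by about 2-fold on both of its probes, and Fbxl12, Fbxl20 and Fbxo44 were lower by smaller amounts. Fbxw7, whose product targets cyclin E and MYC, was higher on both probes, and Fbxo31 was higher on 1 of 2 probes. At an adjusted p under 0.05 (limma with the experiment as a block, Benjamini-Hochberg over 20168 probes), 5 of the 60 F-box probes were lower, where 5.14% of all probes were. In the other direction 3 were higher, where 4.5% of all probes were. In either direction this is 13.3% of the F-box probes against 9.64% of all. At an unadjusted p under 0.05, 13 of the 60 F-box probes were lower and 7 of the 60 higher, beside 13% and 14.3% of all probes. The values of the 2 groups did not overlap for 20 lower and 19 higher of the 60 F-box probes. The shares over all probes were 22.9% and 26.5%.

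These calls depended on how the test was set up. With all 55681 probes in the fit, 0 F-box probes passed after adjustment. The same held with an unpaired t-test of the 2 groups and with a test of the 2 log ratios alone. At an unadjusted p under 0.05 these settings gave 10 lower and 9 higher, 4 lower and 9 higher, and 7 lower and 6 higher F-box probes. Without the experiment block only the 2 Fbxl19 probes passed. Without control replicate 1, and likewise without control replicate 2, the dimmer Fbxl19 probe was the only F-box call. Without miR-26a replicate 1 there were 4 lower and 1 higher, and without either sponge array 3 lower and 2 higher.

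Fbxl19 encodes a leucine-rich repeat protein that also carries a CXXC zinc finger, a domain that binds unmethylated CpG DNA. Its brighter probe lies at chr7:134912920-134912979 (mm9) and its dimmer one at chr7:134912382-134912441. Their place relative to exons and UTRs was not analysed here. The brighter probe had log2 signals of 11.92 and 11.91 in control, 11.03 and 10.80 in miR-26a, and 12.08 and 12.18 in sponge cells. The dimmer probe, which holds the word ACTTGA, had 10.38 and 10.35 in control, 9.27 and 9.26 in miR-26a, and 10.33 and 10.36 in sponge cells. On both probes the 2 miR-26a arrays were lower than the other 4. Against control the brighter probe fell by 1.00 on the log2 scale (SE 0.10, adjusted p = 0.00748 from limma), with -0.89 in experiment 1 and -1.11 in experiment 2. The change was -1.11 for the dimmer probe (SE 0.07, adjusted p = 0.00317), with -1.12 and -1.10. These are falls of 2.00-fold and 2.15-fold. In such bulk RNA, fewer cells that express a gene and less of its RNA per cell cannot be told apart. Leaving out either control array moved the adjusted p of the brighter probe to 0.0701 and 0.0713, while that of the dimmer probe stayed at 0.0497 and 0.045. The study lists Fbxl19 among its repressed genes from these same arrays, so the listing is not independent of the values here. That list was also filtered for predicted miR-26 targets. The paper further cites other work that found Fbxl19 to be a direct miR-26 target in adipocytes.

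**Figure D2:**
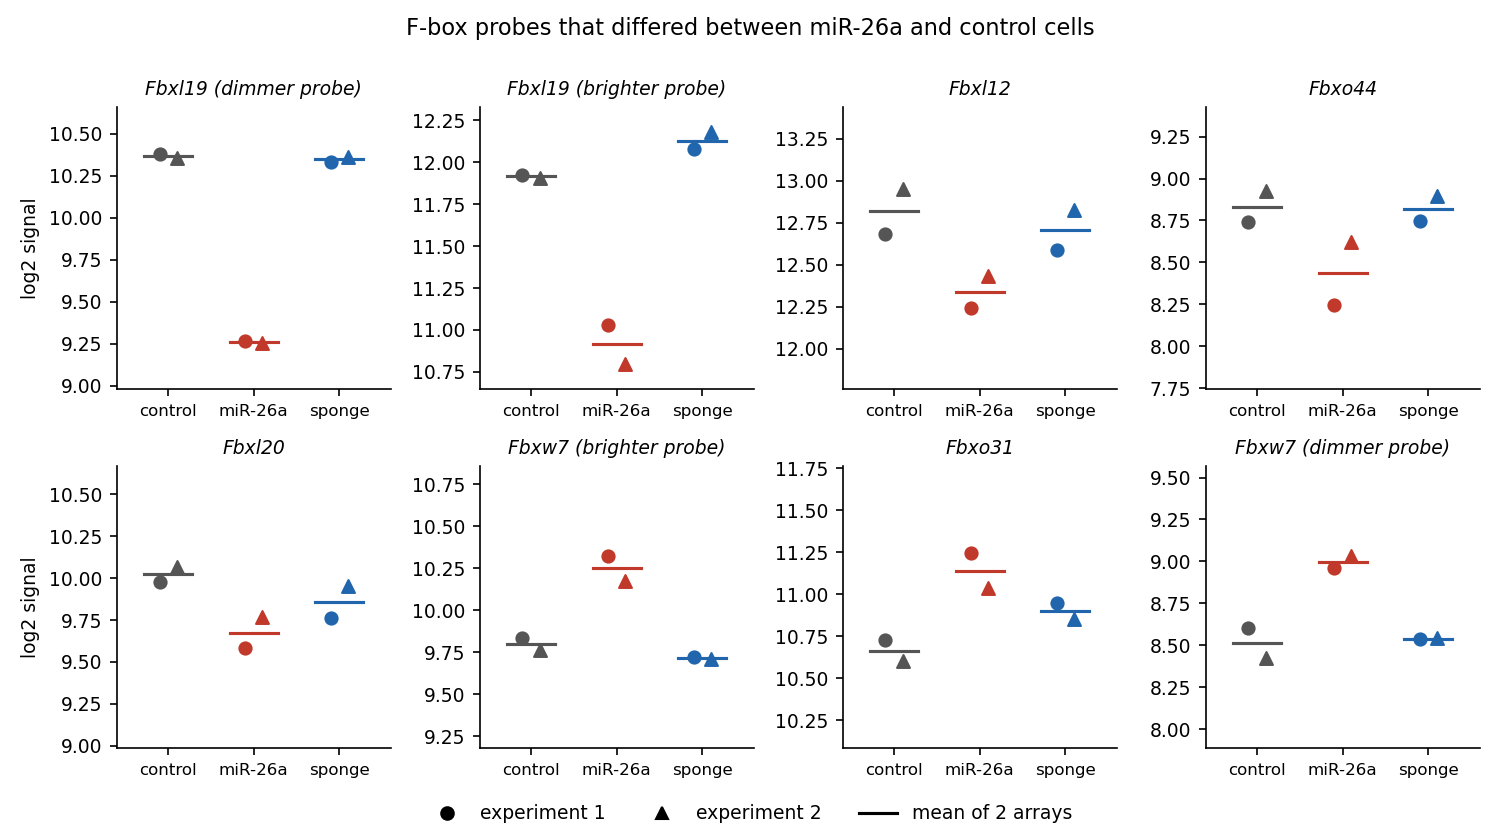
Log2 signal (y axis, the same span in every panel) on each of the 6 arrays for the 8 F-box probes that passed an adjusted p of 0.05 between miR-26a and control cells. Points are arrays, shaped by experiment, and lines are means of 2 arrays; both Fbxl19 probes stand lowest in miR-26a cells and both Fbxw7 probes highest.

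The other Fbxl genes that fell did so by less. Fbxl12 had log2 signals of 12.68 and 12.95 in control, 12.24 and 12.43 in miR-26a, and 12.59 and 12.83 in sponge cells. Both miR-26a arrays were below every other array, although the array of experiment 2 was the higher one in each group. The change against control was -0.48 (SE 0.07, adjusted p = 0.0163 from limma). Fbxl20, known at synapses as Scrapper, had 9.98 and 10.07 in control, 9.58 and 9.77 in miR-26a, and 9.76 and 9.95 in sponge cells. Its miR-26a arrays lay below the control arrays but overlapped the sponge arrays. The change against control was -0.35 (SE 0.07, adjusted p = 0.0388). A second tested Fbxl20 probe changed by -0.08 (adjusted p = 0.56), so the probes of this gene did not show the same size of change. Fbxl6 changed by -0.24 (adjusted p = 0.0941). Fbxl17, which controls the dimers that BTB proteins form, had the highest change of the tested Fbxl genes at 0.15 (adjusted p = 0.203).

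Of the Fbxo genes, Fbxo44 fell and Fbxo31 rose. Fbxo44 is 1 of a group of F-box proteins with an FBA domain, to which Fbxo2, Fbxo6, Fbxo17 and Fbxo27 also belong and through which Fbxo2 and Fbxo6 bind N-glycans. Its brighter probe had 8.74 and 8.92 in control, 8.25 and 8.62 in miR-26a, and 8.74 and 8.90 in sponge cells, a change of -0.40 (SE 0.08, adjusted p = 0.0434 from limma). The dimmer probe changed by -0.47, with a larger SE of 0.12 and an adjusted p of 0.0749. The probes of Fbxo2, Fbxo6 and Fbxo44 lie within 20.6 kb of chromosome 4, and these neighbours differed in sign. Fbxo2 changed by -0.27 (adjusted p = 0.152) and Fbxo6 by 0.09 (adjusted p = 0.457).

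Fbxo31, a receptor reported to target cyclin D1, had 10.73 and 10.60 in control, 11.24 and 11.04 in miR-26a, and 10.95 and 10.85 in sponge cells. The miR-26a arrays were the highest and the control arrays the lowest. The change against control was 0.48 (SE 0.07, adjusted p = 0.0179 from limma). On the other Fbxo31 probe it was 0.08 (adjusted p = 0.532), which was the widest gap between 2 tested probes of a gene in this comparison. Fbxo21 and Fbxo3 changed by 0.31 each, with adjusted p of 0.058 and 0.0593. Fbxo36, whose probe holds the word ACTTGAA and which the study also lists from these arrays, changed by -0.32 (adjusted p = 0.0767). Fbxo11, which targets BCL6 in B cells, changed by -0.12 (adjusted p = 0.313).

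Of the Fbxw genes, Fbxw7 rose on both probes. This gene encodes the receptor for phosphorylated cyclin E, MYC, JUN, NOTCH and MCL1. Its brighter probe had 9.83 and 9.76 in control, 10.33 and 10.17 in miR-26a, and 9.72 and 9.71 in sponge cells. Its dimmer probe had 8.60 and 8.42 in control, 8.96 and 9.03 in miR-26a, and 8.54 and 8.54 in sponge cells. The miR-26a arrays were above the other 4 on both probes. The changes against control were 0.45 (SE 0.07, adjusted p = 0.0216 from limma) and 0.48 (SE 0.09, adjusted p = 0.0289). Fbxw8, which pairs with Cul7, had the widest gap between replicates of the tested F-box probes, with 9.21 and 8.09 in miR-26a cells beside 8.59 and 8.21 in control cells. Its change of 0.25 (adjusted p = 0.569) became -0.20 without miR-26a replicate 1 and 0.70 (adjusted p = 0.0269) without miR-26a replicate 2. Fbxo21 and Fbxw8 have their probes within 57.0 kb of chromosome 5. Fbxw17 changed by 0.16 and Fbxw2 by -0.08, with adjusted p of 0.282 and 0.547.

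For the classes as a whole, the tested Fbxl probes had the lowest median change against control, at -0.13, with 12 of 16 below 0. The Fbxo median was 0.04, with 14 of 32 below 0, and the Fbxw median 0.12, with 3 of 12 below 0. Without the filter, over all probes of each class, the Fbxl median was -0.0058, the Fbxo median 0.038 and the Fbxw median 0.037. The median of all tested F-box probes was 0.01, as was that of all probes tested. Within experiments 1 and 2 the Fbxl median was -0.14 and -0.13, that of Fbxo was 0.04 and 0.03, and that of Fbxw was 0.15 and 0.02. Of the calls, 4 of the 5 lower probes were Fbxl probes, 2 of them of the same gene, and 2 of the 3 higher ones were the Fbxw7 probes. These medians are a description of the probes that passed the filter and carry no test. Of the 13 genes with more than 1 tested probe, 11 had the same sign on all their probes.

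**Figure D3:**
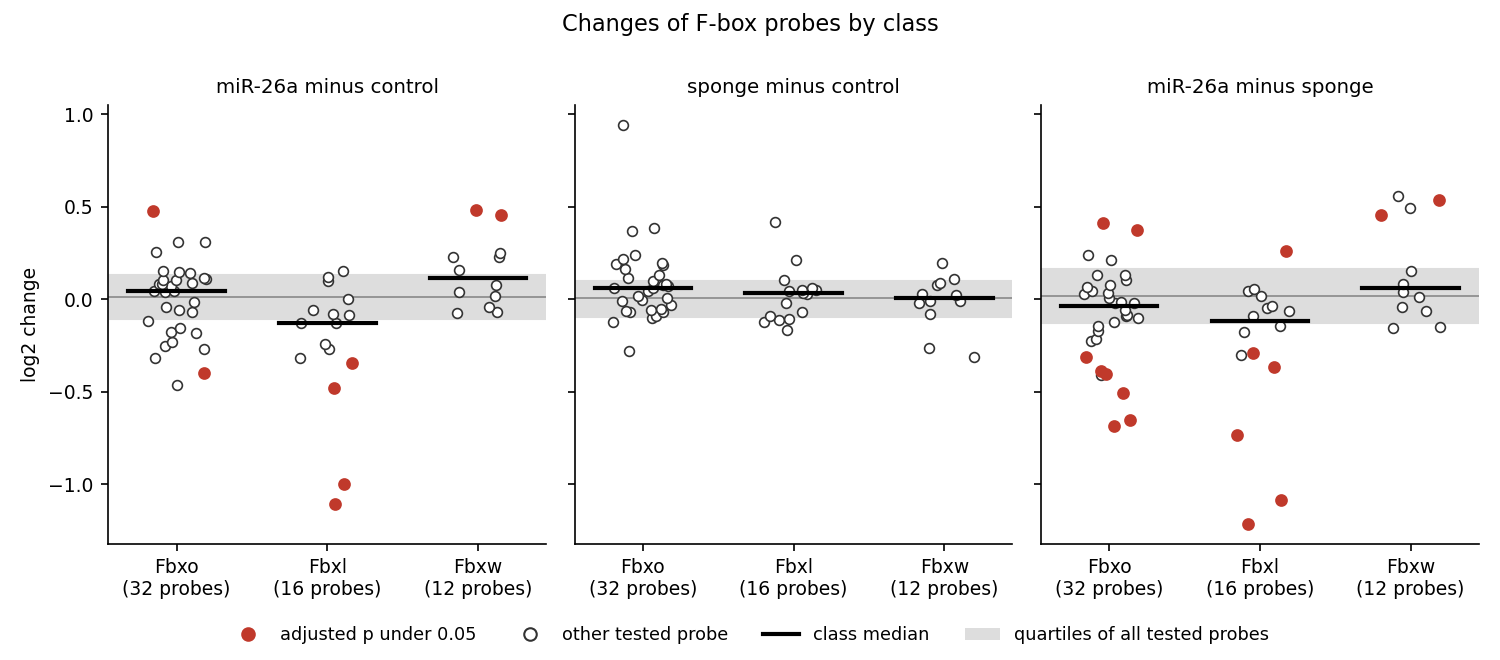
Log2 change (y axis) of every tested F-box probe by class in the 3 comparisons; filled points passed an adjusted p of 0.05, bars are class medians and the grey band spans the quartiles of all tested probes. In miR-26a minus control the Fbxl median is -0.13 and the Fbxw median 0.12, and no F-box probe passed in sponge minus control.

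The second comparison asks how the transcripts differ when the miR-26 family is sequestered, and no F-box probe passed the adjusted threshold. The call rate over all probes was 0.00992%, all of it in the higher direction. At an unadjusted p under 0.05 (limma), 8 of the 60 F-box probes were higher and 0 lower, where 7.38% and 8.72% of all probes were. Of the 8, 7 were Fbxo probes. The groups did not overlap for 7 lower and 21 higher of the 60 F-box probes, beside 20.4% and 17.3% of all probes. The class medians were 0.06 for Fbxo, 0.03 for Fbxl and 0.01 for Fbxw, against 0.00 for all probes. The sponge and miR-26a comparisons use the same 2 control arrays, so their values are set side by side and not correlated.

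Fbxo17 had the largest change of the tested F-box probes in sponge cells. It is a member of the FBA-domain group. Its log2 signals were 6.83 and 6.65 in control, 7.08 and 6.91 in miR-26a, and 7.70 and 7.67 in sponge cells. The sponge arrays were the highest, and the miR-26a arrays lay between them and the controls. The change was 0.94 in sponge against control (SE 0.07, unadjusted p = 2.51e-05, adjusted p = 0.0724 from limma), a 1.92-fold difference, with 0.87 and 1.01 in the 2 experiments. It passed the threshold in 3 of 16 alternatives. With normexp background correction the change was 0.67 (adjusted p = 0.019), and without either miR-26a array, which only alters the shared spread, the adjusted p was 0.0119. In the others the adjusted p ran from 0.0512 to 0.741, with 0.247 without the block, 0.441 without the filter, 0.274 and 0.52 without a control array and 0.319 and 0.256 without a sponge array. Against control the miR-26a change of Fbxo17 was 0.25 (adjusted p = 0.0953). A second Fbxo17 probe was above background on 1 array only and was not tested.

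Fbxo2 and Fbxo10 are genes that the study lists as sponge-responsive. Its list was chosen by higher sponge values on these same arrays, so high values here are no separate result. Fbxo2 had 6.78 and 6.69 in control, 6.35 and 6.57 in miR-26a, and 7.14 and 7.09 in sponge cells, a sponge change of 0.38 (adjusted p = 0.227 from limma). It was highest in sponge and lowest in miR-26a cells. Fbxo10, an F-box protein reported to bind BCL2, had 8.42 and 8.35 in control, 8.57 and 8.51 in miR-26a, and 8.79 and 8.72 in sponge cells. Here both vectors gave higher values than control, with changes of 0.37 (adjusted p = 0.206) in sponge and 0.15 (adjusted p = 0.205) in miR-26a cells.

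The F-box genes called with miR-26a had smaller values in sponge cells. Fbxl19 changed by 0.21 on the brighter probe (adjusted p = 0.351) and by -0.02 on the dimmer one (adjusted p = 0.9). Fbxw7 changed by -0.08 and 0.03, Fbxl12 by -0.11 and the brighter Fbxo44 probe by -0.01. Fbxo31 changed by 0.24 on the probe that was called with miR-26a and by -0.13 on the other. Among the main probes of tested genes, the lowest sponge values of the classes were those of Fbxw8 at -0.31, Fbxo39 at -0.28 and Fbxl20 at -0.17, none past the threshold. Fbxw17 was the highest of the tested Fbxw genes at 0.20.

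**Figure D4:**
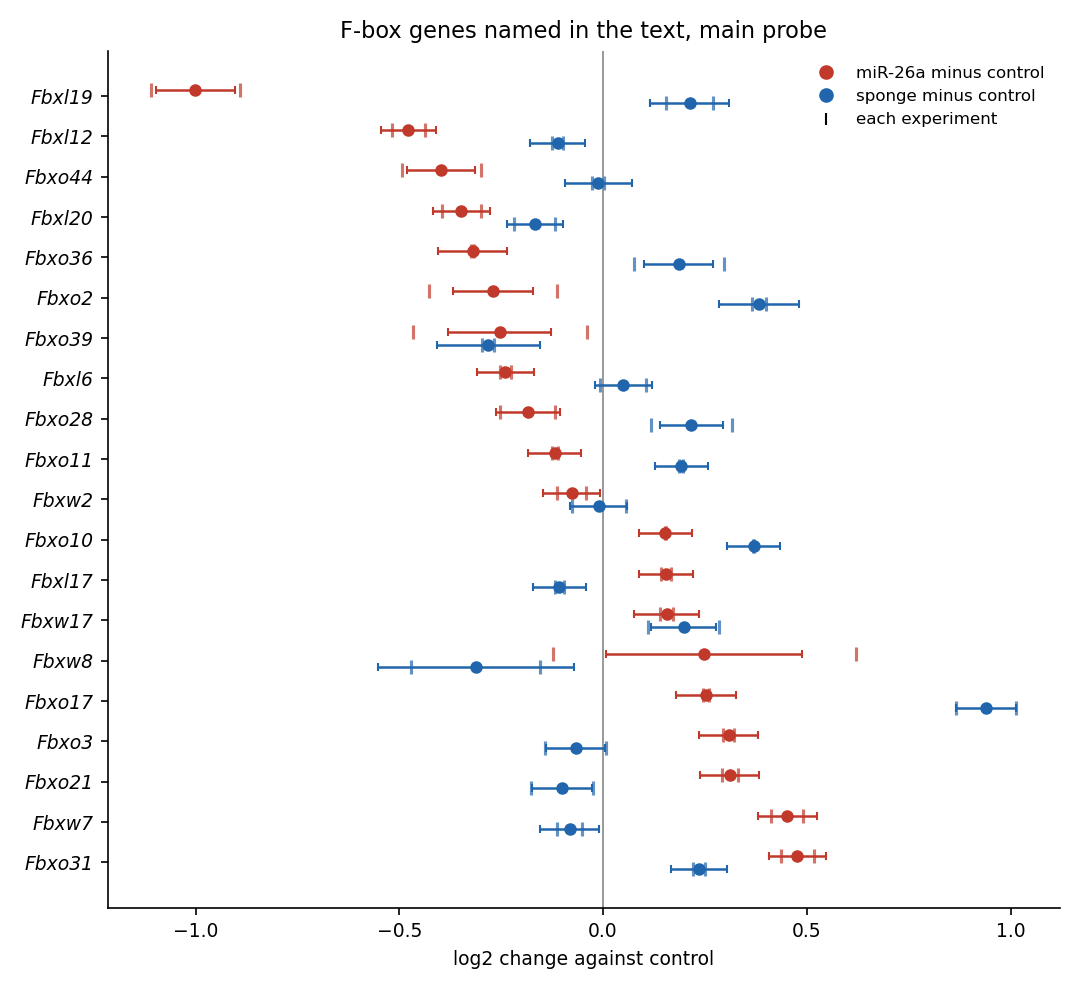
Log2 change against control (x axis) of the main probe of 20 F-box genes in miR-26a and sponge cells, with the standard error of the limma fit as bars and each experiment as a tick. Fbxl19 has the lowest miR-26a value, where it fell by 1.00, and Fbxo17 the highest sponge value at 0.94.

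Set directly against each other, miR-26a and sponge cells differed in more F-box probes than either did from control. Lower in miR-26a cells were 11 of the 60 probes (18.3%), where 8.49% of all probes were. Higher were 5 (8.33%), where 8.28% of all probes were. Together this is 26.7% of the F-box probes beside 16.8% of all probes. At an unadjusted p under 0.05, 16 of the 60 were lower and 8 of the 60 higher, beside 15.9% and 18.7% of all probes. The groups did not overlap for 25 lower and 11 higher of the 60 F-box probes, beside 22.9% and 28% of all probes. By class, 6 Fbxo, 5 Fbxl and 0 Fbxw probes were lower, and 2 Fbxo, 1 Fbxl and 2 Fbxw probes were higher. As before, 0 passed with all probes in the fit, with the unpaired t-test or with the log ratios alone. At an unadjusted p under 0.05 these gave 14 lower and 9 higher, 12 lower and 2 higher, and 6 lower and 3 higher. Without the block 5 lower and 1 higher passed. Without single arrays 2 to 7 lower and 0 to 3 higher passed. The lowest numbers were those without sponge replicate 1, with 3 lower and 0 higher, and without sponge replicate 2, with 2 lower and 0 higher.

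Among the tested F-box probes, Fbxl19 again had the largest difference, -1.21 (SE 0.10, adjusted p = 0.00333 from limma) on the brighter and -1.09 (SE 0.07, adjusted p = 0.00216) on the dimmer probe. Both stayed past the threshold without any single array. Fbxo17 differed by -0.69 (adjusted p = 0.00615) and Fbxo2 by -0.65 (adjusted p = 0.0142). Both were lower than in sponge cells without having passed the threshold against control in either comparison. Fbxo36 differed by -0.51 (adjusted p = 0.0185), with 7.08 and 6.85 in miR-26a beside 7.47 and 7.47 in sponge cells. Fbxo28, Fbxo44, Fbxl12, Fbxo11 and Fbxl6 were lower as well, with differences of -0.40, -0.39, -0.37, -0.31 and -0.29 and adjusted p between 0.0231 and 0.0454. Higher in miR-26a than in sponge cells were both Fbxw7 probes, by 0.53 (adjusted p = 0.0108) and 0.46 (adjusted p = 0.0242). Fbxo21 was higher by 0.41 (adjusted p = 0.0215), Fbxo3 by 0.38 (adjusted p = 0.0269) and Fbxl17 by 0.26 (adjusted p = 0.049).

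Another 26 tested genes passed in none of the 3 comparisons. Against control their main probes changed by -0.23 (Fbxo18, a DNA helicase now named Fbh1) to 0.23 (Fbxw4) in miR-26a cells and by -0.09 (Fbxl8) to 0.20 (Fbxo30) in sponge cells. Fbxw11, one of the beta-TrCP proteins, changed by 0.04 on its brighter probe and -0.04 on the other in miR-26a cells. Fbxo5, or Emi1, an inhibitor of the anaphase-promoting complex, changed by -0.04, and Fbxl5, the iron-regulated receptor of IRP2, by -0.13.

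F-box genes that bear other names were looked at beside the members. Of 8 such genes 7 were tested, and Skp2, the receptor for the CDK inhibitor p27, was the only one called, where 9.64% of all probes were called in miR-26a minus control. It had 11.38 and 11.32 in control, 9.80 and 9.93 in miR-26a, and 11.71 and 11.58 in sponge cells, and fell by 1.49 with miR-26a (adjusted p = 0.00317 from limma). Kdm2a and Kdm2b, which like Fbxl19 carry a CXXC domain, were not called. The median of the 7 genes was -0.01 with miR-26a and 0.03 with the sponge.

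The partners of the F-box proteins were read from a list. The list holds the SCF core, neddylation enzymes, the COP9 signalosome, ubiquitin-conjugating enzymes such as Ube2d1, and further factors such as Cand1 and Cks1b. Of its 33 genes 31 were tested, with a median change of 0.06 in both comparisons with control. With miR-26a, Cops2 fell by 0.56 (adjusted p = 0.0108 from limma) and Cops7a rose by 0.48 (adjusted p = 0.0218). Both are subunits of the signalosome, which removes Nedd8 from cullins. A second Cops2 probe changed by -0.38 (adjusted p = 0.0486) and a second Cops7a probe by 0.16 (adjusted p = 0.338). These 2 of 31 genes stand beside 9.64% of all probes. Skp1a changed by 0.09 and Cul1 by 0.18, neither past the threshold. With the sponge 0 of the 31 passed. Against sponge, Ube2d1 (-0.72), Cops2 (-0.70) and Cops7b (-0.31) were lower and Cops7a (0.42) was higher in miR-26a cells, which is 4 of 31 genes beside 16.8% of all probes.

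Transcripts of 13 proteins known as substrates of F-box proteins were read as well, of which 12 were tested. Among those of FBXW7, Ccne1 fell by 0.60 (adjusted p = 0.012 from limma; -0.39 and 0.0874 on its second probe) and Jun by 0.54 (adjusted p = 0.0306), and Myc rose by 0.58 (adjusted p = 0.0154) with miR-26a. These 3 of 12 genes stand beside 9.64% of all probes. The median of the 12 was -0.04, and with the sponge none passed. Rhoa, a reported substrate of FBXL19, changed by 0.09 (adjusted p = 0.553), and the IL-33 receptor gene Il1rl1 was not above background. Transcript levels do not measure the turnover of these proteins.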

How the data were processed

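RNA of 6 cultures was measured on Agilent mouse arrays with Cy3 as the only dye. The authors deposited the intensity of each spot as scanned with Agilent Feature Extraction 10.7.1.1, and a table of quantile-normalized intensity whose columns share a median of 12.29. Its values correlated at 1.00 with the scanner values (log2). No counts exist, and the number of arrays limits the precision. Groups and replicate numbers came from the labels. The titles of the control arrays quote other samples, so their records may also belong to an earlier series. All 6 arrays were nonetheless of 1 slide and 1 scan.

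Processed signals were quantile-normalized here over non-control spots, log2-transformed and averaged over unflagged spots. Probes entered the fit when above 50 on 4 or more arrays and marked as well above background on 1 or more. limma 3.58.1 in R 4.3.3 was fitted over the 3 groups with the experiment as a block, since the methods normalize to the control of each experiment, with Benjamini-Hochberg adjustment over 20168 probes. Same-numbered arrays deviated together (correlations 0.38, 0.59 and 0.45). Whether the experiment or the position on the slide made them do so was not tested. Each array also has 2 position numbers on the slide. The first equals the replicate number in every group, so experiment and position cannot be told apart. The second is 1 for control, 2 for miR-26a and 4 for sponge arrays, so group and position cannot be told apart either.

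Members, gene lists and tests were chosen with earlier results of these data known. Named were Fbxl19, every F-box gene with an adjusted p under 0.05, the largest rise and fall of each class against control, Fbxo36, Fbxo2 and Fbxo10 (listed by the study from these arrays), Fbxw7 and Fbxo11. Genes without a tested probe are named as such. Some items the rule or the lists hold are not reported here by name but stay in the counts. Fbxl8, Fbxl5, Fbxo5, Fbxo6, Fbxo18, Fbxo30, Fbxw4 and Fbxw11 were picked after their values were seen. Skp1a, Cul1, Kdm2a, Kdm2b, Rhoa and Il1rl1 come from the pathway lists and were also picked for naming with values known. The tested probe with the highest mean log2 signal over all 6 arrays, treated ones included, stands for a gene. In control cells alone the main Fbxo31 probe was the dimmer one, with a mean of 10.66 beside 10.69. Gene names and mm9 positions are those of the array; 98 of 106 probes matched RefSeq genes by accession and 8 by symbol.

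Alternatives were the fit without the block, scaling to the 75th percentile, normexp correction (offset 50), the authors' values, no filter and 2 other filters. Further ones were averaging the probes of a gene, an unpaired t-test, a test of the 2 log ratios, and leaving out each array. The fit was tested on simulated arrays with independent noise and no effect of the experiment, so the block itself was not tested. Software for tables and plots was pandas 2.3.3, numpy 2.4.6 and matplotlib 3.10.9.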

Additional observations from a re-analysis of the deposited data

How the results depend on the processing

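The fits disagreed on counts far more than on directions, and the causes were not tested. With all probes in the fit, 0 F-box probes and 0 of all probes were lower or higher in any comparison. So it was with the unpaired t-test and with the test of the 2 log ratios. The brighter Fbxl19 probe then kept its values of -1.0 and -1.21 (miR-26a against control and against sponge) with adjusted p of 0.236 to 0.428 in the first. Without the replicate block, F-box calls were 2 lower and 0 higher for miR-26a minus control and 5 and 1 for miR-26a minus sponge, and calls over all probes 238 and 73, and 632 and 365. Both Fbxl19 probes passed against control with and without the block. With the probes of a gene averaged, miR-26a minus control gave 2 lower and 1 higher F-box genes, and sponge minus control 0 higher over all genes. In sponge minus control, scaling to the 75th percentile gave 1 lower over all probes, a signal above 50 on 2 arrays gave 2 lower and 8 higher, and normexp gave 26 lower and 10 higher, of which 1 was an F-box probe (Fbxo17). The Fbxo medians moved to 0.060, 0.094 and -0.072 (miR-26a minus control, sponge minus control, miR-26a minus sponge) with the percentile and to 0.024, 0.055 and -0.064 with normexp. For sponge minus control the Fbxo median was 0.057 with the authors' values and 0.045 without the filter, and for miR-26a minus sponge -0.020 without the filter and -0.022 with the filter on 2 arrays. The Fbxl median of miR-26a minus control was -0.10 with the percentile and -0.0058 without the filter. That of miR-26a minus sponge was -0.10 with normexp, -0.034 without the filter and -0.079 with averaged probes, and the Fbxw median 0.015 without the filter. These medians were set against the spread of only 2 experiments. Leaving out single arrays gave 1 to 5 lower and 0 to 3 higher F-box probes for miR-26a minus control (75 to 916 and 29 to 683 of all probes), 0 lower and 0 to 1 higher for sponge minus control (0 to 22 and 0 to 13), and 2 to 7 lower and 0 to 3 higher for miR-26a minus sponge (285 to 1349 and 125 to 1087). Where a group was left with 1 array, that array was assumed to vary like the others. The brighter Fbxl19 probe stayed between -1.14 and -0.86, 0.10 and 0.32, and -1.35 and -1.08. In sponge minus control the dimmer Fbxl19 probe was at -0.02 with all arrays, and its probes averaged gave 0.096. The Fbxo, Fbxl and Fbxw medians ran from 0.018 to 0.063, -0.16 to -0.11 and 0.050 to 0.16 in miR-26a minus control, from 0.030 to 0.063, -0.0082 to 0.031 and -0.058 to 0.042 in sponge minus control, and from -0.079 to -0.016, -0.16 to -0.11 and 0.0094 to 0.14 in miR-26a minus sponge. Among the named genes, no change past the threshold in the main fit turned its sign. Values not past it did. They were near 0 except those of Fbxw8, at -0.31 in sponge minus control and 0.25 in miR-26a minus control. In sponge minus control, Fbxo44 turned to 0.0040 with the percentile. Fbxw2 turned to 0.0087, 0.019 and 0.038 with the percentile, normexp and averaged probes. With single arrays left out, the sponge minus control values ran from -0.14 to 0.0006 for Fbxo3, -0.075 to 0.052 for Fbxo44, -0.062 to 0.040 for Fbxw2 and -0.66 to 0.032 for Fbxw8. In miR-26a minus sponge, Fbxo39 was -0.014 with normexp and ran from -0.19 to 0.25 without single arrays, and Fbxw17 from -0.14 to 0.053. In miR-26a minus control, Fbxw8 ran from -0.20 to 0.70. The 2 arrays a group limit the precision of every value.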
